A study of Mus musculus with 19 samples.

Results

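Genes for histone variants and for the proteins that handle them were followed in mouse oocytes and embryos: H3f3a, H3f3b, H2afx, H2afz, H2afv, H2afy, Hira, Npm2, Npm3 and Chaf1a. These 10 were chosen by name, and all 10 of them were found among the 25891 genes of the deposited expression table. RNA had been sequenced from 19 libraries, 10 of MII oocytes, which are mature oocytes arrested in metaphase of the second meiotic division (5 labelled Het, here CPEB3+/-, and 5 labelled KO, here CPEB3-/-), and 9 of 2cell embryos (5 CPEB3+/- and 4 CPEB3-/-). CPEB3 is an RNA-binding protein that recognises elements in the 3′UTR of maternal mRNAs. The females were BL6 mice of 6 to 10 weeks, superovulated with 5 IU of PMSG and, 48 h later, 5 IU of hCG. Zygotes were taken 17 h after hCG and cultured in M16 medium, and 2cell embryos were collected 37 h after hCG. In the study's model CPEB3-/- stands for CPEB3 LoxP/LoxP; ZP3 Cre+/-, so that Cre acts in the growing oocyte only, and the heterozygous females served as control. In its breeding to embryos the females were mated with wild-type males, so an embryo called CPEB3-/- lacks the maternal copy and not the paternal one. Each library came from a small pool of cells, and nothing says that the pools came from separate animals, so p values measure the spread between these pools only.

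Nucleosomes are assembled from core histones made during S phase and from replacement variants made at any time. H3f3a and H3f3b both encode the replacement form of histone H3, which the chaperone HIRA deposits on DNA that is not replicating, including the sperm chromatin in the zygote. H2afz and H2afv encode a pair of closely related H2A.Z proteins found near active and poised promoters. H2afx encodes H2A.X, which is phosphorylated around DNA breaks, and H2afy encodes macroH2A1, a variant with a large extra domain that is lost from chromatin after fertilization. Chaf1a encodes the large subunit of CAF-1, which assembles nucleosomes behind the replication fork. Npm2, the oocyte nucleoplasmin, and Npm3 belong to a family of nuclear chaperones that bind histones. The maternal stock of such mRNAs and their replacement by embryonic transcripts at the 2cell stage give the question behind each comparison, the genotypes within a stage and the stages within a genotype.

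The deposited values are FPKM, and they were found to be scaled to the whole span of a gene, introns included, and not to its exons. Low values should be whole fragments once multiplied by the right length. For 14285 genes with long introns, 67.8 to 72.4% of the low values per library were whole to within 0.05 if the span was that length and at most 11.4% if the exons were, where 10% would be by chance. Chaf1a spans 31851 bases with 8854 bases of exon, and Hira spans 93273 bases with 6215, so the deposited value of Hira is 15.0 times lower than it would be per kilobase of exon. Levels of different genes are therefore compared below per kilobase of exon (exon FPKM), while differences between groups are given on the deposited scale and, where the scale matters, also from FPM, the FPKM multiplied by the span in kilobases. All differences are log2 fold changes of CPEB3-/- over CPEB3+/- or of 2cell over MII, from limma on log2(value + 0.1), with p values adjusted by Benjamini-Hochberg over all genes tested. A gene was called at an adjusted p under 0.05 and a fold above 1.5. The depth read from the same steps was 17.2 to 23.7 M fragments per library (median 19.8). At this depth Chaf1a rested on 257 to 5909 fragments per library, Hira on 19.5 to 142, H2afy on 8.14 to 259 and Npm3 on 5.99 to 74.4. All 10 oocyte markers and the 9 of 10 listed 2cell markers found in the table reached a median of 0.1 FPKM in their own stage. The oocyte markers summed to 1392 to 1738 FPKM in CPEB3+/- and 1102 to 1324 FPKM in CPEB3-/- MII oocytes, and the 2cell markers to 38.0 to 45.0 and 46.2 to 61.8 FPKM there, so both sums differed between the genotypes without overlap. In 2cell embryos the same sums overlapped (150 to 218 and 121 to 166 FPKM, 402 to 608 and 407 to 554 FPKM). The 11 of 16 cumulus and granulosa cell markers found summed to 0.30 to 1.29 FPKM per library, with Foxl2 at 0 in every MII library, and the 4 of 7 blood markers to 0.858 to 1.45 and 1.65 to 2.71 FPKM in MII and 47.8 to 148 FPKM in 2cell libraries. The part of these shifts in the results below was not tested. Cpeb3 itself did not fall in the libraries labelled CPEB3-/-: it was listed at 0.0450 to 0.101 FPKM in CPEB3+/- and 0.131 to 0.215 FPKM in CPEB3-/- MII oocytes (log2 fold change 0.53, standard error 0.12, adjusted p = 0.0144). From FPM, on the scale explained above, the difference was 1.02 (adjusted p = 0.00132) in MII oocytes and 0.85 (adjusted p = 0.0523) in 2cell embryos. The table has no value for the deleted exons alone, so the genotype names below mean the libraries labelled so.

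The end of the 3′UTR is shown first, since CPEB proteins act there together with the polyadenylation signal. The last 100 bases of the longest annotated 3′UTR (GENCODE vM21) were searched on the transcript strand for the cytoplasmic polyadenylation elements TTTTAT and TTTTAAT and for the polyadenylation signals AATAAA and ATTAAA. Of the 10 genes, 9 held a polyadenylation signal there, the exception being H2afy, and 2 held a cytoplasmic polyadenylation element, H2afx and H2afv. Of 16272 genes, 80.7% held a signal, 18.4% an element and 15.4% both. Sites of some of the genes described below are written 5′ to 3′ with the motifs in capitals, on GRCm38. In H2afx the element and the signal share bases.
H2afx (chr9:44336031-44336060, plus strand): tgggctaaTTTTATTAAAggatcgtttggt
H2afv element (chr11:6427268-6427297, minus strand): aagaaataTTTTATtatggaagttctgaca
H2afv signal (chr11:6427236-6427265, minus strand): tgcacagaAATAAAgaaactagcactagtg
H3f3a (chr1:180800832-180800861, minus strand): tgaaaaatAATAAAagtaccaatagaagaa
H3f3b (chr11:116021983-116022012, minus strand): gccttacaAATAAActagtaagtttggagt
Npm2 (chr14:70647302-70647329, minus strand): agggccacAATAAAatttgcatgatcag
Npm3 (chr19:45747744-45747773, minus strand): aatatctaAATAAAgtggtgtacggttggt
A match is a description of these letters and not a measured binding site. Over the whole 3′UTR, elements were found in 6 genes, and in none of the 4 chaperones. H3f3b held 6, H3f3a 5, H2afv 4, and H2afx, H2afz and H2afy 1 each. The 3′UTRs of these 6 genes are, in that order, 1495, 2245, 1142, 884, 475 and 608 bases long. Those of Hira, Npm2, Npm3 and Chaf1a have 753, 203, 325 and 2726 bases. The share of all genes with an element in the whole 3′UTR was not counted.

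In CPEB3+/- MII oocytes, H3f3b and Npm2 stood far above the other genes. H3f3b had an exon FPKM of 634 ± 58.3 (SD, n = 5) and ranked 50 of 25642 genes, and Npm2 had 403 ± 43.2 and ranked 83. Chaf1a (19.8 ± 5.70), H2afz (18.8 ± 2.01) and H3f3a (16.1 ± 1.64) followed, and neighbours in this trio overlapped in their ranges. H2afv had 9.23 ± 0.730 and H2afx 5.07 ± 2.47. Npm3 (1.09 ± 0.298), H2afy (0.784 ± 0.258) and Hira (0.276 ± 0.151) were lowest, and each overlapped its neighbour. In CPEB3+/- 2cell embryos the order was another one: H2afz (513 ± 37.8) and H3f3b (486 ± 53.1) were highest and overlapped, followed by Npm2 (118 ± 25), H2afv (75.6 ± 6.52) and H3f3a (54.3 ± 7.67), of which only the last pair overlapped. The lowest were Hira (0.680 ± 0.240), Npm3 (0.612 ± 0.244) and H2afy (0.190 ± 0.122).

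**Figure D1:**
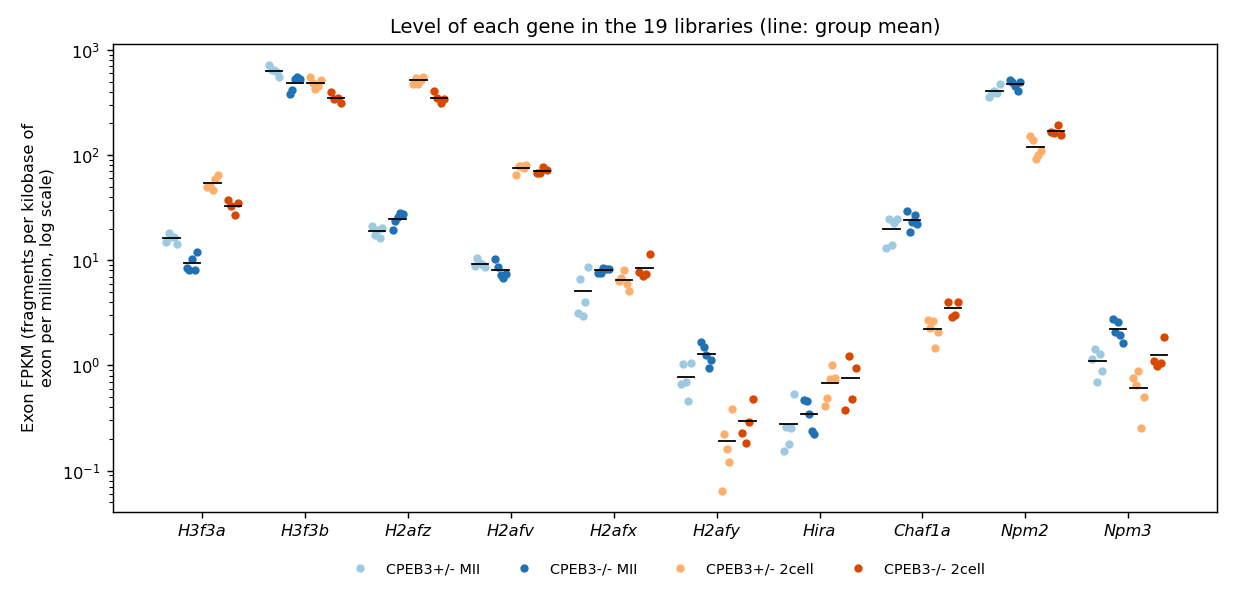
Level of the 10 genes in each of the 19 libraries, as exon FPKM on a log axis, with 1 point per library and a line at the group mean. H3f3b stayed between 312 and 715 in all libraries, whereas H2afz lay between 16.3 and 28.0 in MII oocytes and between 311 and 558 in 2cell embryos.

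The 2 genes of replacement H3 were lower in CPEB3-/- MII oocytes, and 1 of them passed the 1.5-fold threshold. H3f3a (chromosome 1, 180800832 to 180813943, minus strand, GRCm38) had 3.96, 4.90, 4.45, 4.43 and 3.79 FPKM in the CPEB3+/- libraries A to E and 2.26, 2.16, 2.77, 2.17 and 3.23 FPKM in the CPEB3-/- libraries A to E. The highest CPEB3-/- library was below the lowest CPEB3+/- one. The log2 fold change was -0.86 (standard error 0.14), or 1.81-fold lower, with an adjusted p of 0.00273 (limma, Benjamini-Hochberg). H3f3b (chromosome 11, 116021912 to 116027962, minus strand) had 351.5, 317, 314, 305.3 and 271 FPKM against 185.5, 203, 261, 275 and 260.5 FPKM. Its groups overlapped, by the highest CPEB3-/- library, and the difference of -0.51 (standard error 0.15, adjusted p = 0.0402) stayed under 1.5-fold and was -0.33 (adjusted p = 0.0881) scaled to the sum of FPKM. In a bulk sample, less RNA in each cell and fewer cells with the RNA cannot be told apart.

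Among the H2A variants, no gene was called in MII oocytes on the deposited scale. H2afx (chromosome 9, 44334694 to 44336077, plus strand, a single exon) had 3.15, 6.66, 2.96, 3.97 and 8.60 FPKM in CPEB3+/- libraries and 7.5, 7.64, 8.42, 8.33 and 8.32 FPKM in CPEB3-/- libraries. The CPEB3-/- libraries lay close together, and the CPEB3+/- libraries ranged from well below them to above them, with library E highest. The difference of 0.68 (standard error 0.24) had an adjusted p of 0.0661, and without that library it was 0.88 (adjusted p = 0.0129). H2afz differed by 0.29 (standard error 0.14, adjusted p = 0.168), with 11.9 to 15.3 against 14.2 to 20.4 FPKM, and H2afv by -0.27 (standard error 0.11, adjusted p = 0.105), with 0.817 to 0.990 against 0.648 to 0.979 FPKM. H2afy had 0.0502 to 0.115 FPKM in CPEB3+/- and 0.102 to 0.181 FPKM in CPEB3-/- libraries, a difference of 0.33 (standard error 0.13, adjusted p = 0.0985). These values of H2afy lie near the 0.1 FPKM added before taking logarithms, and from FPM the difference was 0.64 (standard error 0.22, adjusted p = 0.0478) and was called, as was that of H2afx (0.67, standard error 0.23, adjusted p = 0.0474). From FPM corrected for the GC content of the genes neither was called (0.52 and 0.35, adjusted p = 0.0758 and 0.190).

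Of the chaperones, Npm3 was higher in CPEB3-/- MII oocytes. It had 0.742, 0.913, 0.448, 0.826 and 0.566 FPKM in CPEB3+/- libraries and 1.75, 1.33, 1.67, 1.24 and 1.04 FPKM in CPEB3-/- libraries (chromosome 19, 45747734 to 45749591, minus strand). No CPEB3-/- library was as low as any CPEB3+/- one. The difference was 0.84 (standard error 0.17), or 1.79-fold, with an adjusted p of 0.009. Npm2 had 31.1 to 41.1 against 35.3 to 45.2 FPKM (0.13, standard error 0.092, adjusted p = 0.311) and Chaf1a 3.64 to 6.82 against 5.14 to 8.12 FPKM (0.21, standard error 0.18, adjusted p = 0.407), both with overlapping groups. Hira, at 0.0102 to 0.0354 against 0.0150 to 0.0313 FPKM, was under the limit of 0.1 FPKM and was not tested on that scale. From FPM it differed by 0.28 (standard error 0.32, adjusted p = 0.536).

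In all, 9 of the 10 genes were tested in MII oocytes, and 1 was called higher and 1 lower. Over all 10513 genes tested, 12.9% were called, 5.6% higher and 7.27% lower. From FPM, 4 of 10 were called, beside 17.9% of all genes. The groups did not overlap for the same 2 of the 9, against 16.3% of all genes tested. H3f3a and Npm3 remained called after correction for GC content (-0.70 and 0.70, adjusted p = 0.00392 and 0.0119) and with each library left out in turn. With a pseudocount of 1 in place of 0.1, Npm3 was at 0.45 and not called. Scaling to the sum of FPKM in place of trimmed means moved the median difference of all genes from 0.011 to 0.15 and the numbers called from 589 higher and 764 lower to 1111 and 478, with H3f3a at -0.69, Npm3 at 1.0 and H2afx at 0.86 (adjusted p = 0.0409) called.

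Processed copies share sequence with both of these genes. The 3 annotated copies of H3f3a match its coding sequence at 98.0 to 99.0% of positions, with an unbroken shared run of up to 267 bases, and the 1 copy of Npm3 matches at 98.9%. The table gives them fragments of their own. In CPEB3+/- MII oocytes the 3 copies held 24.7 ± 2.84 FPM beside 56.5 ± 5.76 for H3f3a, and in CPEB3-/- MII oocytes 20.3 ± 3.17 beside 33.0 ± 6.20. Summed with its copies, H3f3a was 0.658 times as high in CPEB3-/- as in CPEB3+/- MII oocytes, and the groups did not overlap (70.3 to 91.7 FPM in CPEB3+/- and 46.1 to 62.0 FPM in CPEB3-/-). Npm3 with its copy was 1.95 times as high, and there the groups overlapped (1.82 to 3.41 FPM in CPEB3+/- and 3.24 to 5.86 FPM in CPEB3-/-). How reads that fit several places were counted is not given in the sources used here. The coding sequences of H3f3a and H3f3b are 76.9% identical with a longest shared run of 23 bases, and those of H2afz and H2afv 79.1% with 14 bases, far shorter than a read of 150 bases. The kit does not mark strand, and Gm17275, which overlaps 638 exon bases of H3f3a on the other strand, had 0.402 to 0.554 FPKM in CPEB3+/- and 0.169 to 0.261 FPKM in CPEB3-/- MII oocytes. Gm15491, which overlaps 84 exon bases of Npm3, had 0.0989 to 0.404 and 0.191 to 1.17 FPKM. The part of these overlaps in the differences was not tested.

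**Figure D2:**
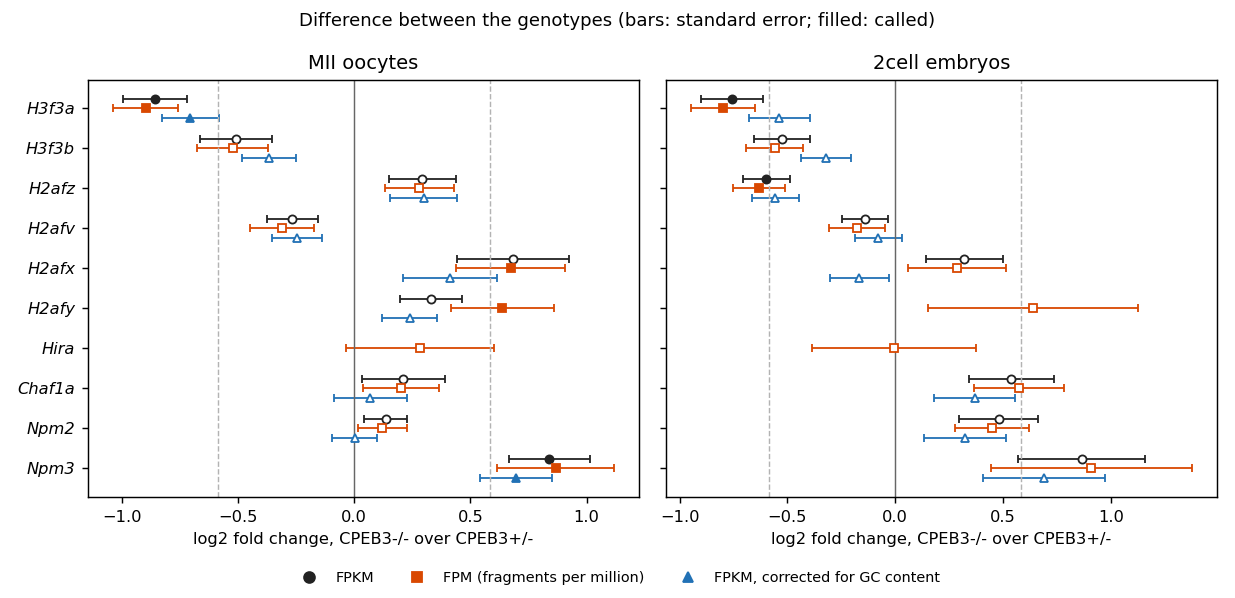
Log2 fold change of CPEB3-/- over CPEB3+/- libraries in MII oocytes (left) and 2cell embryos (right), with standard errors, from FPKM, from FPM and from FPKM corrected for GC content. Filled symbols were called, dashed lines mark 1.5-fold, and missing symbols were under the limit for testing. H3f3a was at -0.86 in MII oocytes and -0.76 in 2cell embryos, and in 2cell embryos no FPKM value corrected for GC content was called.

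In 2cell embryos, H3f3a was again lower in the CPEB3-/- libraries, and H2afz was lower as well. H3f3a had 13.3, 13.7, 12.4, 15.9 and 17.4 FPKM in CPEB3+/- embryos A to E and 10.0, 8.78, 7.15 and 9.38 FPKM in CPEB3-/- embryos A to D. The groups did not overlap, and the log2 fold change was -0.76 (standard error 0.15), or 1.69-fold lower, with an adjusted p of 0.00786. With its 3 copies summed, H3f3a was 0.596 times as high in CPEB3-/- embryos. H3f3b had 274.5, 236, 207, 224 and 254 against 194, 167, 172 and 153 FPKM. Its groups did not overlap either, and its difference of -0.52 (standard error 0.13, adjusted p = 0.0208) stayed under 1.5-fold. It was -0.32 (adjusted p = 0.0907) after correction for GC content and -0.18 (adjusted p = 0.288) scaled to the sum of FPKM.

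H2afz (chromosome 3, 137864487 to 137866922, plus strand) had 344.5, 393.5, 347, 378 and 407 FPKM in CPEB3+/- embryos and 297, 252, 227 and 247 FPKM in CPEB3-/- embryos. Each CPEB3-/- embryo library was below each CPEB3+/- one. The log2 fold change was -0.60 (standard error 0.11), or 1.51-fold lower, with an adjusted p of 0.00707, just past the threshold. Without CPEB3+/- library E or CPEB3-/- library C it was -0.57 or -0.56 (adjusted p = 0.0206 and 0.0185) and no longer above 1.5-fold. Its partner H2afv (chromosome 11, 6427229 to 6444443, minus strand) had 6.12 to 7.64 against 6.35 to 7.27 FPKM, a difference of -0.14 (standard error 0.11, adjusted p = 0.390). H2afx had 5.11 to 8.04 against 7.04 to 11.6 FPKM (0.32, standard error 0.18, adjusted p = 0.235), and this difference turned to -0.17 after correction for GC content. H2afy was under the limit for testing, and from FPM it differed by 0.64 (standard error 0.49, adjusted p = 0.367).

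The chaperone genes had higher means in CPEB3-/- embryos, and none passed the test. Npm2 (chromosome 14, 70647302 to 70659244, minus strand) had 13.0, 12.1, 8.02, 8.69 and 9.54 FPKM in CPEB3+/- and 14.4, 14.0, 16.6 and 13.5 FPKM in CPEB3-/- embryos, a difference of 0.48 (standard error 0.18, adjusted p = 0.0915). Npm3 had 0.484, 0.421, 0.567, 0.164 and 0.319 against 0.71, 0.638, 0.668 and 1.18 FPKM, a difference of 0.86 (standard error 0.29, adjusted p = 0.0654). Chaf1a (chromosome 17, 56040439 to 56072289, plus strand) had 0.746, 0.634, 0.736, 0.409 and 0.582 against 1.11, 0.806, 0.845 and 1.13 FPKM, a difference of 0.54 (standard error 0.20, adjusted p = 0.0822). For these 3 genes no CPEB3-/- embryo library was as low as any CPEB3+/- one. For Npm3 summed with its copy, however, the groups overlapped (0.608 to 1.86 FPM in CPEB3+/- and 1.45 to 3.69 FPM in CPEB3-/-). Chaf1a shares 4648 exon bases with Ubxn6 on the other strand, which had 0.562 to 0.772 and 0.996 to 1.51 FPKM. Gm15491, which overlaps 84 exon bases of Npm3, had 0.6545 to 1.921 FPKM in CPEB3+/- and 3.101 to 5.895 FPKM in CPEB3-/- embryos. What these 2 overlaps add to the differences was not tested. Hira (chromosome 16, 18877037 to 18970309, plus strand) had 0.0273 to 0.0675 against 0.0253 to 0.0817 FPKM, and from FPM its difference was -0.006 (standard error 0.38, adjusted p = 0.993).

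Of the 8 genes tested in 2cell embryos, limma called 2 lower and 0 higher. The unadjusted p (limma) of Npm3, Npm2 and Chaf1a was 0.015, 0.0251 and 0.0214. Over all genes tested, 4816 had an unadjusted p under 0.05. Of all 14049 genes tested 18.1% were called, 8.53% higher and 9.56% lower. From FPM, 2 of 10 were called, beside 20.8% of all genes. The groups did not overlap for 6 of the 8, H3f3a, H3f3b and H2afz lower and Npm2, Npm3 and Chaf1a higher, against 20% of all genes tested. The calls depended on how libraries were adjusted. The longest annotated transcripts of H3f3a, H3f3b and H2afz hold 43.2, 43.4 and 48.4% G and C. Those of Npm2, Npm3 and Chaf1a hold 52.4, 52.8 and 52.7%. After correction for GC content 0 of the 8 were called, beside 13.1% of all genes. H3f3a was then at -0.54 and H2afz at -0.56 (limma, adjusted p = 0.0332 and 0.0112), under 1.5-fold. Scaled to the sum of FPKM, which moved the median difference of all genes from -0.0046 to 0.26 and the numbers called from 1198 higher and 1343 lower to 2422 and 573, H2afx (0.66), Npm2 (0.82), Npm3 (1.15) and Chaf1a (0.84) were called higher, H3f3a (-0.42) and H2afz (-0.26) were not called, and H2afv turned to 0.20.

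Between MII oocytes and 2cell embryos, 8 of the 9 genes tested were called in each genotype, beside 66.3% of all genes in CPEB3+/- and 65.1% in CPEB3-/- libraries. H2afz rose most: its 5 CPEB3+/- MII libraries had 15.3, 12.6, 14.0, 11.9 and 14.9 FPKM, against at least 344.5 FPKM in each CPEB3+/- 2cell library, a log2 fold change of 4.55 (standard error 0.13), or 23.5-fold (adjusted p = 1.18e-15). In CPEB3-/- libraries it rose from 14.2, 17.1, 18.8, 20.4 and 20.1 FPKM to at least 227 FPKM, by 3.68 (standard error 0.14), or 12.8-fold (adjusted p = 6.05e-14). H2afv rose by 2.70 in CPEB3+/- and 2.85 in CPEB3-/- libraries (standard error 0.10 and 0.11), from 0.648 to 0.990 FPKM in MII to 6.12 to 7.64 FPKM in 2cell libraries of both genotypes. H3f3a rose by 1.52 and 1.64 (standard error 0.14 and 0.15). Hira, untested on the deposited scale, rose from FPM by 1.23 (standard error 0.35, adjusted p = 0.00336) and 0.91 (standard error 0.38, adjusted p = 0.0347), although its groups overlapped in both genotypes. With GC correction of FPM it was at 1.05 (adjusted p = 0.00591) in CPEB3+/- libraries, and at 0.61 (adjusted p = 0.121) and not called in CPEB3-/- libraries.

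Chaf1a fell most, by 3.12 (standard error 0.17, 8.71-fold) in CPEB3+/- and by 2.78 (standard error 0.18, 6.87-fold) in CPEB3-/- libraries. Npm2 fell by 1.98 and 1.62 (standard error 0.13 and 0.14) and Npm3 by 0.91 and 0.88 (standard error 0.23 and 0.24). H2afy fell by 0.68 and 0.90 on the deposited scale and by 2.19 and 2.22 (standard error 0.35 and 0.37) from FPM, from at least 64.8 fragments per MII library to at most 63.2 per 2cell library. H3f3b fell by 0.59 in both, close to the threshold. It lost its call without any of 4 libraries in CPEB3+/- and any of 5 in CPEB3-/- (-0.49 to -0.58), and from FPM (-0.48 and -0.55). After correction for GC content it was at -0.31 and -0.23 (adjusted p = 0.0189 and 0.0852) and from FPM so corrected at -0.13 and -0.076 (adjusted p = 0.285 and 0.549), not called in any of these, and scaled to the sum of FPKM at -1.17 and -1.02, called in both. H2afx did not pass the test in either genotype (0.25, standard error 0.21, adjusted p = 0.30 and -0.10, standard error 0.23, adjusted p = 0.711). After correction for GC content its difference in CPEB3-/- libraries was -0.77 (adjusted p = 0.00143) and was called.

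The 8 genes called in each genotype were 3 higher and 5 lower. Of all 15784 genes tested, 66.3% were called in CPEB3+/- libraries (38.5% higher, 27.8% lower) and 65.1% in CPEB3-/- libraries (38.5% higher, 26.7% lower). From FPM, 8 of 10 were called in each, beside 70.2% and 68.8% of all genes. The stages did not overlap for 6 of the 9 tested in each genotype, H3f3a, H2afz, H2afv, H2afy, Npm2 and Chaf1a, where 58.9% and 59.3% of all genes did not. The values are shares of the RNA captured in each library and not amounts per oocyte or embryo. Scaled to the sum of FPKM, the median difference of all genes moved from 0.22 to -0.17 in CPEB3+/- libraries and the numbers called from 6070 higher and 4388 lower to 4976 and 5930, and the 8 genes remained called there in the same directions.

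**Figure D3:**
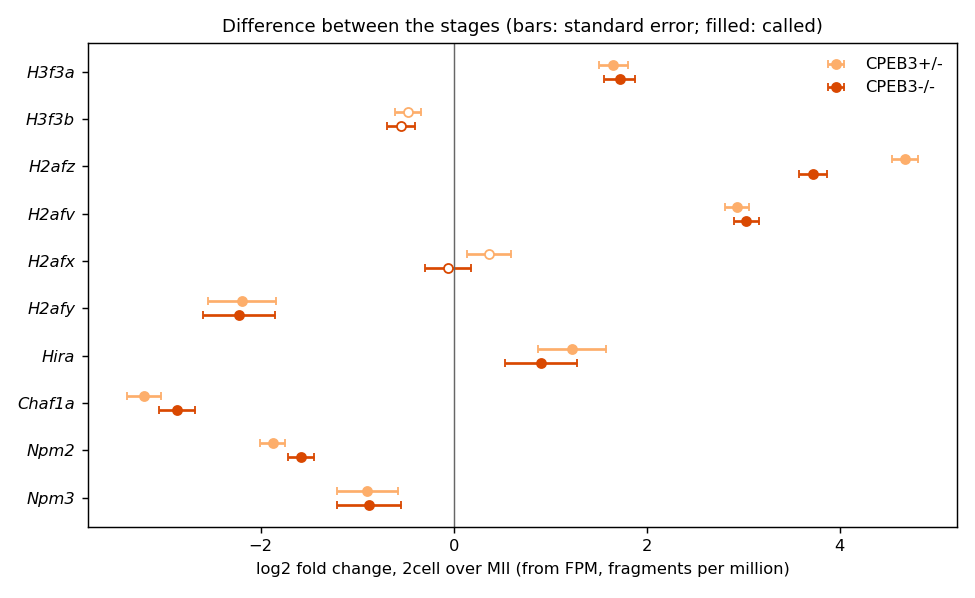
Log2 fold change of 2cell embryos over MII oocytes from FPM, within CPEB3+/- and within CPEB3-/- libraries, with standard errors and filled symbols for called genes. H2afz stood at 4.68 in CPEB3+/- and 3.73 in CPEB3-/- libraries, and H2afy at -2.19 and -2.22.

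Whether the genotype difference itself changed between the stages was tested as an interaction. Of the 9 genes tested, 1 passed at an adjusted p under 0.05, H2afz, with a negative value, against 8.07% of all genes and 4.34% with a negative value. From FPM it was 1 of 10, beside 5.71%. Its difference between genotypes was 0.29 in MII oocytes and -0.60 in 2cell embryos, and the interaction was -0.87 (standard error 0.19, adjusted p = 0.00937). It kept an adjusted p under 0.05 in each other setting tried and without any of the 19 libraries (-0.98 to -0.81), and it was -0.84 after correction for GC content and -0.95 from FPM. H2afv had an interaction of 0.15 (standard error 0.15, adjusted p = 0.609) and H3f3a one of 0.12 (standard error 0.21, adjusted p = 0.780). Since both contrasts share libraries with the stage comparisons, these values are not a further test of those.

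Shares within a pair of genes need no scaling between libraries. Each was tested by exact permutation of the library labels (two-sided), with p values adjusted over 8 tests. Per kilobase of exon, H3f3a made up 2.49 ± 0.275% (SD, n = 5) of H3f3a plus H3f3b in CPEB3+/- MII oocytes and 1.94 ± 0.320% (n = 5) in CPEB3-/- MII oocytes (exact permutation test, p = 0.0238, adjusted p = 0.0381). In 2cell embryos the share was 10.1 ± 1.33% (n = 5) and 8.67 ± 1.23% (n = 4) (exact permutation test, p = 0.167). It was higher in 2cell embryos than in MII oocytes in every library of both genotypes (exact permutation test, p = 0.00794 in each, the smallest these libraries allow, adjusted p = 0.0212, and up to 0.0508 in CPEB3-/- libraries without library B or C of the MII oocytes). As deposited, with the span as length, the 4 means were 1.37, 1.06, 5.75 and 4.91%, and the tests gave the same p values.

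H2afz made up 67.0 ± 3.59% (n = 5) of H2afz plus H2afv in CPEB3+/- and 75.1 ± 6.12% (n = 5) in CPEB3-/- MII oocytes (exact permutation test, p = 0.0397, adjusted p = 0.0454). In 2cell embryos the order was the other way, with 87.2 ± 0.862% (n = 5) in CPEB3+/- and 83.1 ± 2.35% (n = 4) in CPEB3-/- (exact permutation test, p = 0.0159, adjusted p = 0.0317). The share rose between the stages by 20.2 percentage points in CPEB3+/- (adjusted p = 0.0212, exact permutation test) and by 7.99 in CPEB3-/- libraries (adjusted p = 0.0454, exact permutation test). As deposited the 4 means were 93.9, 95.8, 98.1 and 97.4%. With 1 library left out, the adjusted p of the genotype difference rose above 0.05 in 8 of 10 cases in MII oocytes (all but CPEB3+/- A and CPEB3-/- A) and in 7 of 9 cases in 2cell embryos (all but CPEB3+/- C and CPEB3-/- A). For the H3f3a share in MII oocytes it did so without CPEB3+/- B, C, D or E and without CPEB3-/- B or C, at up to 0.0635 (exact permutation tests).

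**Figure D4:**
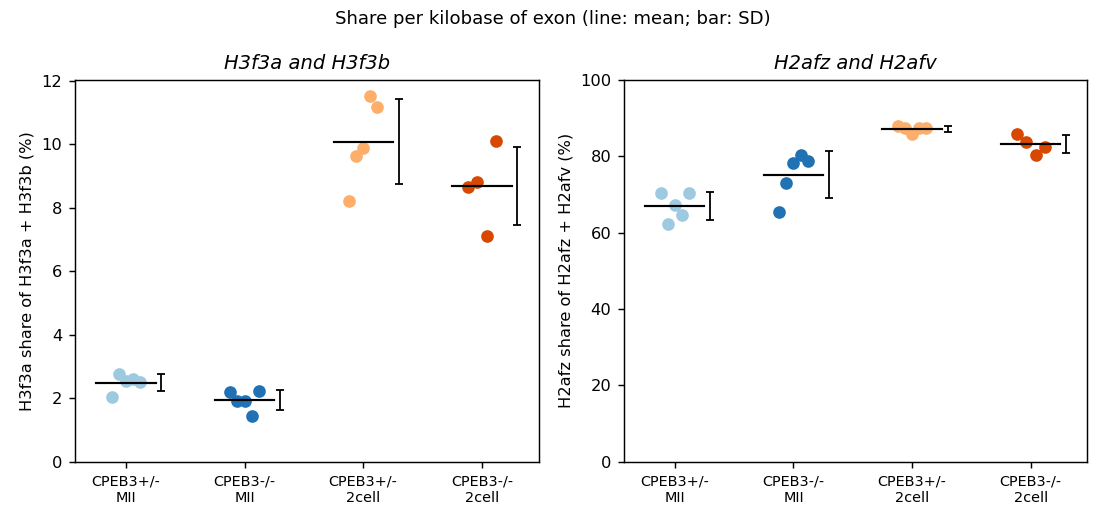
Share of H3f3a in H3f3a plus H3f3b (left) and of H2afz in H2afz plus H2afv (right), in percent per kilobase of exon, with 1 point per library, a line at the mean and a bar of 1 SD. The H3f3a share was 1.43 to 2.76% in MII and 7.12 to 11.5% in 2cell libraries, and the H2afz share was 62.3 to 80.4% and 80.2 to 88.0%.

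Other genes of the same pathway were taken from 2 wider lists. Of 41 other chaperones and exchange factors, 38 were tested in MII oocytes, and 1 was called higher and 2 lower, beside 5.6% and 7.27% of all genes, with a median difference of 0.033 beside 0.011 for all genes. Tonsl, a factor that recognises newly replicated histones, had 0.342 ± 0.171 and 0.768 ± 0.229 FPKM (0.94, standard error 0.24, adjusted p = 0.0224). Hat1, the acetyltransferase of newly made histone H4, had 2.19 ± 0.450 and 1.14 ± 0.389 FPKM (-1.01, standard error 0.27, adjusted p = 0.0236). Anp32e, a chaperone that removes H2A.Z, had 0.841 ± 0.144 and 0.560 ± 0.0370 FPKM (-0.59, standard error 0.12, adjusted p = 0.00995). They lost their calls without single libraries, in 5, 4 and 6 of 10 cases, and from FPM all 3 were called (1.12, -1.10 and -0.68). After correction of FPKM for GC content Tonsl (0.70) and Hat1 (-0.90) were called, and Anp32e (-0.49) was not.

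In 2cell embryos, all 41 were tested, and 1 was called higher and 10 lower, with a median difference of -0.20 beside -0.0046 for all genes, of which 9.56% were called lower. After correction for GC content 1 was called higher and 3 lower, beside 6.12% and 6.95% of all genes. The median was then -0.061, beside 0.011 for all genes. Actr6, a subunit of the complex that inserts H2A.Z, had 0.914 ± 0.239 FPKM in CPEB3+/- and 0.356 ± 0.105 FPKM in CPEB3-/- embryos (-1.19, standard error 0.22, adjusted p = 0.00707), and it was not called after that correction (-0.75, adjusted p = 0.0608). Hat1 had 0.874 ± 0.171 and 0.358 ± 0.0778 FPKM (-1.13, standard error 0.19, adjusted p = 0.00477) and stayed called (-0.96, adjusted p = 0.0112). Oip5, a subunit of the complex that prepares centromeres for CENP-A, had 1.73 ± 0.615 and 0.879 ± 0.108 FPKM (-0.87, standard error 0.25, adjusted p = 0.0382), and kept its call in 2 of 9 cases with a library left out and not after that correction (-0.73, adjusted p = 0.0833). Hjurp, the chaperone of CENP-A, had 4.13 ± 0.731 and 6.79 ± 0.40 FPKM (0.67, standard error 0.13, adjusted p = 0.00747).

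Of 10 other variant histones, 7 were in the table and 5 were tested in each genotype comparison. In MII oocytes 0 of the 5 were called in limma, beside 12.9% of all genes. An unadjusted p under 0.05 was found in limma for 0 of the 5, beside 3905 of all 10513 genes. In 2cell embryos, where 8.53% of all genes were called higher and 9.56% lower, 1 was called higher, H2afj, an H2A variant, with 47.7 ± 9.81 FPKM in CPEB3+/- and 86.3 ± 13.9 FPKM in CPEB3-/- embryos (0.82, standard error 0.16, adjusted p = 0.00927). After correction for GC content its difference was 0.57 (adjusted p = 0.0313) and under 1.5-fold. Between the stages, 10 of the 41 chaperones and exchange factors were called higher and 22 lower in CPEB3+/- libraries, and 10 and 21 in CPEB3-/- libraries, with medians of -0.70 and -0.69 beside 0.22 and 0.23 for all genes. Over all genes the shares called were 38.5% higher and 27.8% lower for CPEB3+/-, and 38.5% and 26.7% for CPEB3-/- libraries. For the interaction, 6 of the 41 were called, all with a negative value, beside 4.34% of all genes with a negative value, and after correction for GC content it was 3 of 41, beside 4.24%.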

How the data were processed

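RNA was reverse transcribed and amplified by the authors from small pools of MII oocytes or 2cell embryos with a SMART-seq kit, which primes on poly(A) tails and does not mark strand, so a value counts captured polyadenylated RNA. The submitters' processing notes name Trim Galore 0.4.1, HISAT2 2.0.5 and GRCm38. The authors deposited FPKM, which the methods credit to SeqMonk, and the filter on multiply mapped reads is not given in the sources used here. Gene starts equalled those of GENCODE vM21 in 97.98% of 25642 matched genes, and the FPKM were found to be divided by the gene span, introns included. Depth was 17.2 to 23.7 M fragments per library, recovered from the steps of the low values.

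Libraries were grouped by their labels, and no column was left out (0 unused). 2 rows with a repeated name were left out. Libraries were brought to 1 scale with a trimmed mean of their log ratios (30% of ratios and 5% of levels trimmed) and tested as log2(FPKM + 0.1) with limma 3.58.1 (trended variance, R 4.3.3) on genes that reached 0.1 FPKM in a number of libraries equal to the size of the smaller group. Genotypes were tested within each stage, and stages and the interaction over all 19 libraries. p values were adjusted by Benjamini-Hochberg over all genes tested. A gene was called at an adjusted p under 0.05 and above 1.5-fold, and the interaction at the p alone. Since log2(FPKM + 0.1) damps low genes, FPM (+ 0.1, at least 0.5 in the same number of libraries) and a correction for GC content (a loess curve per library) were added, the former chosen after seeing the data. Shares used exact permutation tests over all splits of the library labels, computed in Python 3.11.15 with NumPy 2.4.6. The 10 genes and the wider lists were chosen with earlier results of these data known. From the wider lists, up to 3 genes called higher and 3 called lower with the largest change were named per genotype comparison.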

Additional observations from a re-analysis of the deposited data

Results flagged for a closer look

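In CPEB3-/- 2cell embryos, library D stood apart for H2afx, at 11.6 FPKM where the other 3 libraries had 7.04 to 7.70, and for Npm3, at 1.18 FPKM where the others had 0.638 to 0.71. Without it the genotype difference in 2cell embryos was 0.15 for H2afx (limma, adjusted p = 0.566) and 0.65 for Npm3 (adjusted p = 0.176), on the log2 scale. For Hira, library E of the CPEB3+/- MII oocytes had 0.0354 FPKM where the other 4 had 0.0102 to 0.0174. These were 3 of 40 groups of values in which a single library lay this far from the rest, and chance alone gives about 5% of them.

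The genotype difference of H2afz changed between the stages, with an interaction of -0.87 on the log2 scale (limma, adjusted p = 0.00937). Its difference was 0.29 in MII oocytes, which did not pass the test (adjusted p = 0.168, overlapping groups), and -0.60 in 2cell embryos (adjusted p = 0.00707). Oip5, from the wider list of chaperones, had an interaction of -1.11 (limma, adjusted p = 0.034). It was 1 of 6 genes of that list that passed, and is given here as it is named above for its genotype difference in 2cell embryos. Each of the other 5, named only here and after their values were seen, was also negative: Dek at -0.68 (adjusted p = 0.00468), Ruvbl1 at -1.06 (adjusted p = 0.00476), Mis18a at -0.88 (adjusted p = 0.0146), Chd1 at -0.65 (adjusted p = 0.0476) and Set at -1.01 (adjusted p = 0.0481).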

How the results depend on the processing

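Of 209 repeated summary values (numbers of the 10 genes called, and shares), 168 kept their side of the threshold or, for counts, stayed within 1.5 times the first count, 31 shares lost an adjusted p under 0.05, each on leaving out 1 library, and 10 counts moved by more than 1.5 times. In MII oocytes, where 2 of the genes were called, a pseudocount of 1 gave 1, with Npm3 lost, and FPM gave 4. In 2cell embryos 2 were called. The unscaled values and FPM corrected for GC content gave 1, and scaling to the sum of FPKM gave 4. The correction for GC content of FPKM gave 0, where 13.1% of all genes were called. The cause was not tested. For the stages, where 8 were called, the other settings gave 6 to 8. Leaving out 1 library at a time gave 2 to 3 called in MII oocytes, 1 to 3 in 2cell embryos, 7 to 8 for the stages in each genotype, and 1 for the interaction. Without CPEB3+/- library C, H3f3b was called in 2cell embryos (-0.59, limma, adjusted p = 0.0128).

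The replicate letters did not pair the libraries: over 18 pairs with the same letter, deviations from the group means correlated at -0.19 to 0.15, and 3 libraries correlated best with a library of their own letter. With the replicate block, 0 of the 10 genes were called in 2cell embryos, also with the block and GC correction together. Over all genes the block gave 825 calls in MII oocytes (1353 without it), 367 in 2cell embryos (2541) and 845 for the interaction (1274), and with GC correction 0 in 2cell embryos (3313 genes at an unadjusted p under 0.05 in limma).

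Other counts over all genes moved by more than 1.5 times. A pseudocount of 1 gave 481 in MII oocytes, 1163 in 2cell embryos, and 5268 and 5263 for the stages (10458 and 10280). A limit of 1 FPKM gave 774, 1496, 5268, 5134 and, for the interaction, 792, with fewer genes tested. In MII oocytes FPM gave 2277, and 2083 with GC correction. The split of calls there moved from 589 higher and 764 lower to 786 and 591 in the unscaled values.

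The share of H3f3a (as deposited) differed between genotypes in MII oocytes by -0.37 to -0.23 percentage points without single libraries, and between stages by 3.56 to 4.15 in CPEB3-/- and 4.16 to 4.66 in CPEB3+/- libraries. The share of H2afz differed by 1.54 to 2.42 in MII oocytes and by -0.86 to -0.53 in 2cell embryos, and between stages by 1.06 to 1.91 in CPEB3-/- libraries, where 8 of 9 exact permutation tests (all but that without MII library D) then had an adjusted p above 0.05.

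Of 1037 repeated values of single genes, 939 kept their call and direction, 45 lost a call, 15 gained one and 38 turned direction, the last all of differences that were not called. The calls lost were those of H3f3b between the stages, of H3f3a and H2afz in 2cell embryos, and of H2afy, Hira and Npm3 in single settings. The interaction of H3f3b (0.0035) was -0.069 with no limit on low values, -0.068 unscaled and -0.071 from FPM. H2afx in 2cell embryos (0.32) was -0.17 with GC correction, -0.23 with the block and GC correction and -0.35 from FPM with GC correction. H2afx between stages in CPEB3+/- libraries (0.25) was -0.32 scaled to the sum, -0.14 with GC correction, with and without the block, and -0.26 from FPM with GC correction, and in CPEB3-/- libraries (-0.10) it was 0.037 unscaled. H2afv in 2cell embryos was 0.20 scaled to the sum, Hira there 0.016 with no limit on low values, and Npm2 in MII oocytes -0.041 from FPM with GC correction. The interaction of Npm3 (0.029) was -0.12 with a pseudocount of 1, -0.033 with no limit, -0.025 unscaled, -0.036 with the block, -0.032 with GC correction, -0.097 with both, and -0.080 from FPM with GC correction. Without single libraries the interaction ranged from -0.0023 to 0.23 for H3f3a, from -0.12 to 0.079 for H3f3b and from -0.17 to 0.11 for Npm3. Depth limits Npm3, Hira and H2afy, which rest on as few as 5.99, 19.5 and 8.14 fragments in a library.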
